A study of Homo sapiens with 24 samples.

Results

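FLT1, VEGFA, VEGFB, NRP1 and ERG, the genes of a vascular endothelial growth factor (VEGF) receptor, 2 ligands, a co-receptor and a transcription factor of blood vessel cells, were read by symbol in a table of 14119 genes. Of the 5 genes, 4 had a row. NRP1 was not analysed here. The set was chosen by symbol, around FLT1, whose high CPM with sh1487 and doxycycline in the line without cDNA was already known from earlier results of these data. Values of that comparison, and of differences built on it, are therefore given as a description without a test.

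COLO320DM, a cell line from a human colorectal adenocarcinoma, was grown as tumours in mice, and tumour RNA was sequenced. All 24 libraries carry a hairpin, either shNT or sh1487. Neither the gene that sh1487 targets nor the cDNA that some lines carry is named in the labels. Of the 8 groups, with 3 libraries each, 4 have no cDNA: shNT without doxycycline, shNT with doxycycline, sh1487 without doxycycline and sh1487 with doxycycline. The other 4 are the same combinations with the cDNA added, and every tumour is labelled 72 hr, a time counted from the start of the doxycycline diet in the treated groups. Each combination of hairpin and cDNA is called a line. The labels say neither whether a line is 1 clone nor whether the 3 replicates are separate tumours, so that p-values cover only the spread among these libraries, some of which may be technical. In bulk tumour RNA, fewer cells of a type and less RNA per cell cannot be told apart.

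VEGFA and VEGFB are secreted ligands, and FLT1 (VEGFR1) is a receptor tyrosine kinase that binds both. FLT1 holds VEGFA tightly but signals weakly, and a secreted form of it acts as a decoy, whereas NRP1 is a co-receptor that also binds semaphorins. ERG is an ETS family transcription factor that binds sites with a GGAA core and is best known from the endothelium and, as a fusion gene, from prostate cancer. VEGFA is a textbook target of the hypoxia-inducible factors.

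The libraries held 44004848 to 80202279 reads, and the values are CPM, reads scaled by the authors to a common library size. At this depth 3 reads stand at 0.0368 to 0.0711 CPM, a floor that covers counting error only. The series title names β-catenin, whose gene is CTNNB1. In the sh1487 line without cDNA, CTNNB1 fell from a mean of 226.5 to 43.3 CPM with doxycycline (limma adjusted p = 7.92e-22). With cDNA, it stood at 507.5 CPM without and 593.5 CPM with doxycycline in the sh1487 line, and at 657.6 and 470.5 CPM in the shNT line. Mitochondrial genes took 9.98% to 21.5% of reads, with the highest share in replicate 3 of shNT with cDNA and doxycycline. Of the markers of colorectal epithelium, the transcription factor CDX2 had group means of 1007 to 1944 CPM, and the adhesion molecules EPCAM and CDH1 had 0.568 to 2.59 and 0.174 to 1.12 CPM. Group means of the keratins ran from 3.86 to 427.6 CPM for KRT8, 32.2 to 123.3 CPM for KRT18 and 1.86 to 51.7 CPM for KRT20, and those of the microvillus protein VIL1 from 0.0445 to 1.51 CPM. The highest mean of these 4 and of CDH1, and the lowest of CDX2, were in sh1487 with doxycycline and no cDNA.

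FLT1 (ENSG00000102755) lies on the minus strand of chromosome 13, from 28300344 to 28495145 in GRCh38. In the sh1487 line without cDNA, its 3 libraries stood at 2.87, 2.47 and 2.34 CPM without doxycycline and at 157, 146 and 158 CPM with it. These rest on 159 to 194 reads and on 10371 to 11893 reads per library. In the sh1487 line with cDNA, they stood at 2.43, 2.01 and 1.85 CPM without and at 27.3, 25.7 and 26.2 CPM with doxycycline. In both sh1487 lines every library with doxycycline lay above every library without it, and the high level was lower where the cDNA was present.

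In the shNT line without cDNA, FLT1 was at 0.637, 0.599 and 0.639 CPM without and at 0.438, 0.336 and 0.373 CPM with doxycycline. In the shNT line with cDNA, the libraries were at 0.320, 0.446 and 0.439 CPM without and at 0.594, 0.313 and 0.190 CPM with doxycycline. These values rest on 8 to 49 reads per library. FLT1 reached 1 CPM in 0 of the 12 shNT libraries and in all 12 of sh1487, so it passed the filter on low values through the sh1487 lines. The lowest sh1487 library, at 1.85 CPM, lay above the highest shNT library, at 0.639 CPM.

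**Figure D1:**
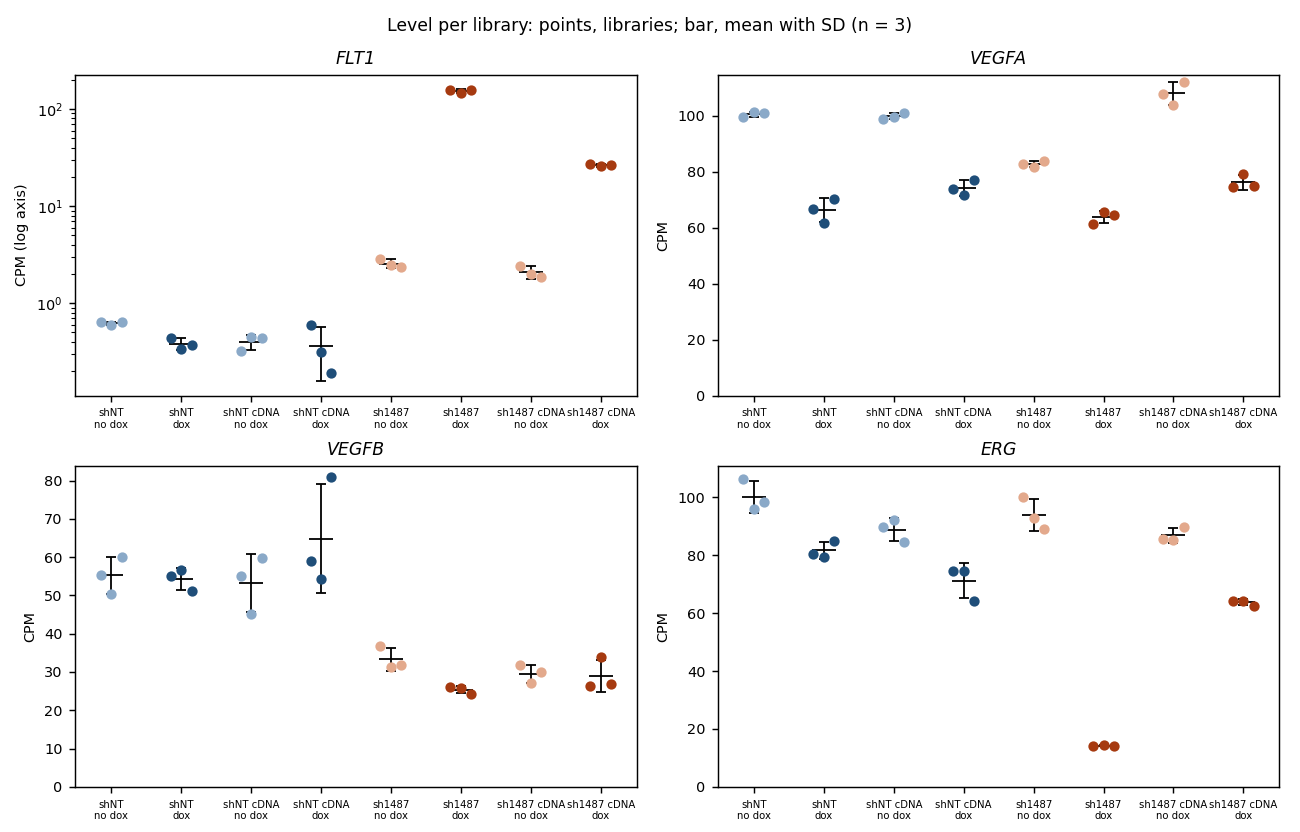
Level of FLT1, VEGFA, VEGFB and ERG in each of the 24 libraries, in CPM, by hairpin, cDNA and doxycycline; points are libraries, bars are group means with SD (n = 3), and the FLT1 axis is logarithmic. FLT1 stood at 146 to 158 CPM in sh1487 with doxycycline and no cDNA, where ERG was at 14.0 to 14.3 CPM.

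The 250 bases before the FLT1 start are shown because ERG, the other gene that differed several-fold in the same libraries, belongs to a family that binds GGAA. The sequence is RefSeq's on GRCh38.p14, chr13:28495129-28495378, minus strand, written from 5′ to 3′ with GGAA or its reverse complement TTCC in capitals.
FLT1: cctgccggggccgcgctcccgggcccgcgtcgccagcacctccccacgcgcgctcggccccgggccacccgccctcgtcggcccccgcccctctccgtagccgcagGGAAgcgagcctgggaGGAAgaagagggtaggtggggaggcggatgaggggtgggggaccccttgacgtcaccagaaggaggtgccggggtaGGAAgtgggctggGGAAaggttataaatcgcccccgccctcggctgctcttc
The window holds GGAA 4 times, and the longer form AGGAAG, which overlaps the core, begins 129 and 53 bases before the start. It also holds TGACGTCA, the cyclic AMP response element, 81 bases before the start, and TATAAA 31 bases before it. Among 35116 RefSeq windows of the same length, 92.7% hold GGAA on either strand, with a median of 3, and 34.3% hold it at least 4 times. AGGAAG was in 28.7% of windows, TGACGTCA in 1.65% and TATAAA in 10.7%. The letters CTTTGA, the core of TCF/LEF sites, were not in the FLT1 window on either strand, against 11.2% of windows with them. The same held for ACGTG, a form of the core of hypoxia-inducible factor sites, which 18.5% of windows hold. Other forms of that core, such as GCGTG, were not searched for. A match describes letters only.

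In group means, FLT1 was at 153.6 ± 6.70 CPM (SD, n = 3) in sh1487 with doxycycline and no cDNA, against 2.56 ± 0.275 without doxycycline, which is 60.0-fold. Changes below are on the log2(CPM + 1) scale, which understates the change of genes near 1 CPM; here the difference was 5.44, the 5th highest of 13832 genes. The doxycycline comparison in the sh1487 line with cDNA shares no library with it. There FLT1 rose 12.6-fold, from 2.095 ± 0.299 to 26.4 ± 0.837 CPM (by log2, 3.15, 95% interval 2.97 to 3.32, limma adjusted p = 6.08e-14), again the 5th highest. Of the 4 genes, 3 passed in that comparison, in which 65.3% of all genes tested were called. Set side by side without a test, FLT1 with sh1487 and doxycycline was 5.82-fold higher without cDNA than with it.

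Without cDNA, the shNT line showed the opposite direction. FLT1 fell from 0.625 ± 0.0224 to 0.382 ± 0.0518 CPM with doxycycline (log2 change −0.23, 95% interval −0.37 to −0.10, limma adjusted p = 0.0123). Of the 4 genes, 3 passed in that comparison, in which 37.8% of genes were called. FLT1 was in that test through the sh1487 libraries alone, since every shNT library was under 1 CPM. The FLT1 call was lost without replicate 2 of shNT with doxycycline (−0.21, limma adjusted p = 0.0508) and with DESeq2 on whole reads (−0.69, adjusted p = 0.0798). The shNT line carrying the cDNA was at 0.401 ± 0.0704 CPM without and 0.365 ± 0.207 CPM with doxycycline, whose libraries overlapped and which did not pass (log2 change −0.05, 95% interval −0.31 to 0.22, limma adjusted p = 0.811). In that comparison VEGFA was the 1 gene of the 4 that passed, and 3.95% of all genes (547) were called. That count was 15 without replicate 1 of the libraries with doxycycline, and 16, 24 and 80 without replicate 1, 2 and 3 of those without it. It was 4406 in a limma fit of all 24 libraries, so counts of called genes in this comparison depend on the fit.

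The difference between the doxycycline effects of the sh1487 and shNT lines with cDNA was tested itself. It was 3.20 for FLT1 (95% interval 2.88 to 3.52, limma adjusted p = 3.91e-08), and FLT1 was the 1 gene of the 4 that passed, where 37.6% of all genes were called. FLT1 was among the genes tested through the sh1487 libraries alone, all at 1 CPM or more with and without doxycycline. Its values in shNT with cDNA rest on 8 to 26 reads per library. With scaling by library size alone, 58.3% of all calls for this difference were higher, against 46.5%. Without cDNA the same difference was 5.68, and the sh1487 effect with cDNA minus that without was −2.29, both described without a test.

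**Figure D2:**
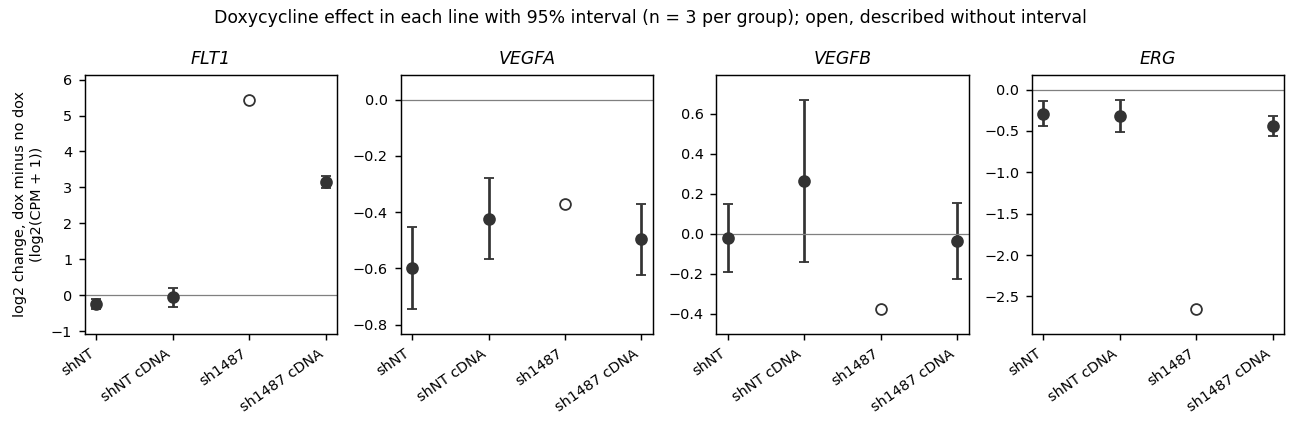
Doxycycline effect on each gene in the 4 lines, as the difference of means on the log2(CPM + 1) scale with its 95% interval (3 libraries per group); open circles mark the line whose values are described without a test or an interval. FLT1 stood at 5.44 and 3.15 in the sh1487 lines and at −0.23 and −0.05 in the shNT lines, and VEGFA was below 0 in all 4 lines.

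The sh1487 and shNT lines were also set side by side before doxycycline. Since FLT1 passed the filter on low values through the sh1487 lines alone, its values here are a description without a test. Without cDNA, mean FLT1 was 4.10-fold higher in the sh1487 line than in the shNT line (log2 difference 1.13), and with cDNA it was 5.22-fold higher (1.14). Of the other 3 genes, VEGFA and VEGFB passed without cDNA, where 73.5% of all genes were called, and VEGFB passed with cDNA, where 62.5% were called. The labels do not separate the hairpin from other differences between these lines, and the 2 cannot be told apart.

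Ordered by level, FLT1 was highest in sh1487 with doxycycline, then in sh1487 with cDNA and doxycycline. Next came the sh1487 groups without doxycycline, without and with cDNA, whose libraries overlapped. The shNT group without doxycycline or cDNA followed, at 0.625 CPM. The other 3 shNT groups, from 0.365 to 0.401 CPM, overlapped one another.

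Endothelial markers were read beside FLT1 and ERG. Of 19 listed markers, 6 had a row (CLDN5, ESAM, EGFL7, ENG, MMRN2 and SOX7), and the other 13, including PECAM1, CDH5, VWF and KDR, were not analysed here. Without cDNA, the sum of the 6 lay at 55.0 to 66.7 CPM in shNT without doxycycline and at 65.3 to 69.6 CPM with it. In sh1487 the sum was 35.7 to 42.0 CPM without and 28.0 to 29.7 CPM with doxycycline, so that it was lowest in the libraries where FLT1 was highest. With cDNA, the sum was 36.2 to 41.2 CPM without and 37.4 to 43.2 CPM with doxycycline in sh1487, and 60.7 to 72.0 and 68.3 to 91.0 CPM in shNT. EGFL7, a secreted vessel protein, made up most of the sum, at 32.2 ± 1.8 CPM without and 35.3 ± 2.4 CPM with doxycycline in sh1487 with cDNA, a difference that did not pass (limma adjusted p = 0.117). In that comparison 1 of 5 tested markers rose and 2 fell, where 31.3% of all genes rose and 34.1% fell. The riser was MMRN2 (0.371 to 0.631 CPM), a vessel matrix protein, and the markers that fell were ENG (2.29 to 1.37 CPM), a TGF-β co-receptor, and the junction protein ESAM (2.89 to 2.23 CPM). Of 11 listed fibroblast and pericyte genes, 7 had rows (8 rows, RGS5 having 2), whose sum was 73.8 to 78.1 CPM without and 66.6 to 72.8 CPM with doxycycline in sh1487. With cDNA it was 76.6 to 89.1 and 74.3 to 79.3 CPM in sh1487, and it was 119 to 161 CPM over the shNT groups. Of the 8 rows, 4 rose and 2 fell with doxycycline in sh1487 with cDNA. PDGFRA, a growth factor receptor of fibroblasts, rose there from 0.529 to 2.74 CPM (limma adjusted p = 8.83e-10), and stood at 0.610 CPM without and 12.1 CPM with doxycycline in sh1487 without cDNA. The other risers were ACTA2, COL1A1 and 1 row of RGS5, while COL3A1 and the other row of RGS5 fell. The part of these markers in the FLT1 and ERG values was not tested. The vessels and stroma of a xenograft come from the host, and the handling of mouse reads is not given in the sources used here.

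ERG (ENSG00000157554) lies on the minus strand of chromosome 21, from 38380027 to 38661780. In the sh1487 line without cDNA, its libraries stood at 99.99, 92.9 and 89.1 CPM without doxycycline and at 14.1, 14.3 and 14.0 CPM with it. In the same line with cDNA, they stood at 85.6, 85.4 and 89.9 CPM without and at 64.3, 64.3 and 62.6 CPM with doxycycline. The 3 libraries of sh1487 with doxycycline and no cDNA stood apart: the lowest of the other 21 libraries was at 62.6 CPM.

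In the shNT line without cDNA, ERG was at 106.3, 95.9 and 98.3 CPM without and at 80.5, 79.5 and 85.0 CPM with doxycycline. With cDNA, the shNT libraries were at 89.8, 92.3 and 84.6 CPM without and at 74.7, 74.6 and 64.3 CPM with doxycycline. In each of the 4 lines, every library with doxycycline lay below every library without it. The difference in sh1487 without cDNA, from 94.0 ± 5.52 to 14.1 ± 0.170 CPM, was 6.65-fold (log2 −2.65), the 48th lowest of 13832 genes, and is given as a description.

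ERG fell with doxycycline in the sh1487 line with cDNA, from 87.0 ± 2.57 to 63.7 ± 1.02 CPM (by log2, −0.44, 95% interval −0.56 to −0.32, limma adjusted p = 5.38e-06). It also fell in the shNT line without cDNA, from 100.2 ± 5.43 to 81.7 ± 2.94 CPM (−0.29, 95% interval −0.44 to −0.14, limma adjusted p = 0.00557). The shNT line carrying the cDNA had 88.9 ± 3.91 and 71.2 ± 5.95 CPM of ERG, which did not pass in the fit of these 6 libraries (−0.32, 95% interval −0.51 to −0.12, limma adjusted p = 0.0817). It passed there with DESeq2 on whole reads (adjusted p = 0.00763) and in a limma fit of all 24 libraries (adjusted p = 0.000544). It also passed there with the replicate number as a block (limma adjusted p = 0.000626). The doxycycline effects of the sh1487 and shNT lines with cDNA differed by −0.12 for ERG, which did not pass (95% interval −0.33 to 0.09, limma adjusted p = 0.331). Without cDNA the same difference, described only, was −2.36.

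Before doxycycline, the lines did not pass for ERG, either without cDNA (sh1487 minus shNT −0.09, 95% interval −0.22 to 0.04, limma adjusted p = 0.186) or with it (−0.03, 95% interval −0.17 to 0.11, limma adjusted p = 0.686). In order of level, the 4 groups without doxycycline formed a chain of overlapping neighbours from 100.2 to 87.0 CPM. Below them came shNT, shNT with cDNA and sh1487 with cDNA, all with doxycycline, and last sh1487 with doxycycline and no cDNA.

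ERG has several start sites, and counts per gene do not tell which one was used. The 250 bases before each of 3 starts in RefSeq, GRCh38.p14, minus strand, are shown with GGAA or TTCC in capitals, to set the start regions of ERG beside that of FLT1. They are chr21:38660668-38660917 (start 1), chr21:38584946-38585195 (start 2) and chr21:38498505-38498754 (start 3); a start whose window overlaps the last of these is left out.
ERG start 1: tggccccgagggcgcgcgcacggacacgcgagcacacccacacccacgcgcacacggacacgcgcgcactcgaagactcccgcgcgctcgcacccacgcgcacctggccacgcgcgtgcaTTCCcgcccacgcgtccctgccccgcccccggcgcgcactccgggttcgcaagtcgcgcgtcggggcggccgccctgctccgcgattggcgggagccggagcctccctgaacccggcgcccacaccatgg
ERG start 2: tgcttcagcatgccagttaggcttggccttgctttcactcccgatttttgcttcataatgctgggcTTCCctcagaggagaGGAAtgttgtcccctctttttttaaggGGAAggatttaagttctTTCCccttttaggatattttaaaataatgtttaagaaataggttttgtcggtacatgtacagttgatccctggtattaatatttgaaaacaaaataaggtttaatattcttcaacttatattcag
ERG start 3: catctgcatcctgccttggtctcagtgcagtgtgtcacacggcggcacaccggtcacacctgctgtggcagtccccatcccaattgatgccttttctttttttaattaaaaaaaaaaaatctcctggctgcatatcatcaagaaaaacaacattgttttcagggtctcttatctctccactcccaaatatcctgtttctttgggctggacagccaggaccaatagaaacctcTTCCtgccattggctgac
The core was found 1, 4 and 1 times in these windows, and their GC content was 77.2%, 36.4% and 46.4%, against 73.2% in the FLT1 window. The longer ETS form was in the window of start 3, as CTTCCT, its reverse complement, 19 bases before the start. None of the 3 windows holds the letters searched for TCF/LEF, hypoxia-inducible factor (ACGTG alone), cyclic AMP element or TATA sites on either strand.

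VEGFA (ENSG00000112715) lies on the plus strand of chromosome 6, from 43770184 to 43786487, and overlaps the antisense gene AL136131.3. The strand setting of the counting is not given in the sources used here, so reads of these genes cannot be told apart. Without cDNA, VEGFA stood at 99.6, 101.2 and 101.1 CPM in shNT without doxycycline and at 66.8, 61.8 and 70.1 CPM with it. In sh1487 it stood at 82.7, 81.7 and 83.8 CPM without and at 61.3, 65.5 and 64.4 CPM with doxycycline. In both lines every library with doxycycline lay below those without it.

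With cDNA, VEGFA stood at 99.0, 99.6 and 101.1 CPM in shNT without doxycycline and at 73.9, 71.7 and 77.1 CPM with it. In sh1487 with cDNA it stood at 107.9, 103.8 and 112.2 CPM without and at 74.5, 79.3 and 74.9 CPM with doxycycline. Over all lines, the lowest of the 12 libraries without doxycycline, at 81.7 CPM, lay above the highest of the 12 with it, at 79.3 CPM.

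VEGFA fell with doxycycline in all 3 comparisons tested. In shNT without cDNA its mean went from 100.6 ± 0.896 to 66.2 ± 4.21 CPM (change of −0.60 in log2, 95% interval −0.74 to −0.45, limma adjusted p = 5.78e-05). In sh1487 with cDNA the means were 108.0 ± 4.18 and 76.2 ± 2.66 CPM (−0.50, 95% interval −0.62 to −0.37, limma adjusted p = 2.17e-06). In shNT with cDNA they were 99.9 ± 1.07 and 74.2 ± 2.74 CPM (−0.42, limma adjusted p = 0.0203). That last call was lost without replicate 1 of shNT with cDNA and doxycycline, or without any 1 of the 3 libraries of shNT with cDNA and no doxycycline. The change then stayed between −0.45 and −0.40, and limma adjusted p in those 4 fits was 0.0965 to 0.158. In sh1487 without cDNA the difference was −0.37, as a description.

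The doxycycline effects on VEGFA of the sh1487 and shNT lines with cDNA differed by −0.07, which did not pass (95% interval −0.25 to 0.10, limma adjusted p = 0.495). VEGFA was the 1 gene of the 4 that passed for the cDNA in the sh1487 line without doxycycline, where 36.8% of all genes were called. It was higher with the cDNA (82.7 ± 1.03 against 108.0 ± 4.18 CPM, log2 difference 0.38, 95% interval 0.28 to 0.48, limma adjusted p = 0.000115). FLT1 (−0.20, limma adjusted p = 0.0872), VEGFB (−0.16, limma adjusted p = 0.0994) and ERG (−0.11, limma adjusted p = 0.125) did not pass there. Between the lines without doxycycline or cDNA, VEGFA was lower in sh1487 than in shNT (−0.28, 95% interval −0.38 to −0.18, limma adjusted p = 0.000155). With cDNA it was 0.11 higher, which did not pass (95% interval −0.02 to 0.24, limma adjusted p = 0.130).

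VEGFB (ENSG00000173511) lies on the plus strand of chromosome 11, from 64234538 to 64238793. Without cDNA, it stood at 55.4, 50.3 and 60.1 CPM in shNT without doxycycline and at 55.2, 56.6 and 51.2 CPM with it. In sh1487 it stood at 36.8, 31.3 and 31.8 CPM without and at 26.1, 25.7 and 24.4 CPM with doxycycline. The shNT groups overlapped, whereas every sh1487 library with doxycycline lay below those without it.

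With cDNA, VEGFB stood at 55.2, 45.0 and 59.8 CPM in shNT without doxycycline and at 59.1, 54.3 and 81.0 CPM with it. In sh1487 with cDNA it stood at 31.7, 27.0 and 30.0 CPM without and at 26.2, 33.8 and 26.8 CPM with doxycycline. The value of 81.0 CPM belonged to the library with 21.5% mitochondrial reads. Across all lines, the lowest of the 12 shNT libraries, at 45.0 CPM, lay above the highest of the 12 sh1487 libraries, at 36.8 CPM.

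VEGFB differed between the lines before doxycycline. It was lower in sh1487 than in shNT without cDNA (log2 difference −0.71, 95% interval −0.88 to −0.55, limma adjusted p = 2.15e-06) and with it (−0.82, 95% interval −1.06 to −0.58, limma adjusted p = 0.000118). The doxycycline difference did not pass in any of the 3 comparisons tested, each without a replicate block. It was −0.02 in shNT without cDNA (95% interval −0.19 to 0.15, limma adjusted p = 0.849) and −0.04 in sh1487 with cDNA (95% interval −0.23 to 0.15, limma adjusted p = 0.737). In shNT with cDNA it was 0.26 (95% interval −0.14 to 0.67, limma adjusted p = 0.362), and 0.18 when replicate 3 was left out of both shNT groups with cDNA. With the replicate number as a block it was called there (limma adjusted p = 0.00665). In sh1487 without cDNA the level went from 33.3 ± 3.07 to 25.4 ± 0.917 CPM (−0.38), as a description.

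For the cDNA in shNT, with no doxycycline, none of the 4 genes passed. FLT1 differed by −0.21 (limma adjusted p = 0.139), VEGFA by −0.01 (0.930), VEGFB by −0.06 (0.788) and ERG by −0.17 (0.217). FLT1 was in this test through the sh1487 libraries alone, which are not part of it, since every shNT library was under 1 CPM. Its result therefore does not show that FLT1 was unchanged. Its libraries with cDNA, at 0.320 to 0.446 CPM, lay below those without, at 0.599 to 0.639 CPM. In this comparison 0.448% of all genes were called. The call depended on the fit for other genes: 62 were called, and 1512 with the replicate number as a block, but none of the 4. The differences and p-values above are from the fit without that block. Whether replicate numbers pair these libraries is not settled by their correlations.

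Per kilobase of exon, as lengths stand in the deposited table, the receptor and its ligands could be set side by side. VEGFB had the highest level of the 4 genes in every group, from 16.4 to 41.9 CPM per kb. FLT1 was at 0.0291 to 0.0498 CPM per kb in the shNT groups, under 4.59 to 6.97 for VEGFA. In sh1487 with doxycycline and no cDNA, FLT1 was at 12.2 CPM per kb, above VEGFA at 4.42 and ERG at 1.86. In sh1487 with cDNA and doxycycline, FLT1 was at 2.10 CPM per kb, below VEGFA at 5.28 and ERG at 8.40. The lengths count all annotated exons, so a gene with many unused exons is understated. They are 14431 bases for VEGFA, 12550 for FLT1, 7588 for ERG and 1545 for VEGFB. In CPM, mean VEGFB was below mean VEGFA in every group, so its place above VEGFA rests on these lengths.

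Of 7 further VEGF family genes listed, 3 had a row. PGF, a ligand of FLT1, stood at 1.24 CPM without and 1.55 CPM with doxycycline in sh1487 with cDNA, which did not pass (limma adjusted p = 0.0906). It rose in shNT without cDNA from 1.45 to 1.87 CPM (0.23 on the log2 scale, limma adjusted p = 0.0417). NRP2, a co-receptor related to NRP1, rose in sh1487 with cDNA from 400.7 to 456.4 CPM (0.19, limma adjusted p = 0.0181), while its levels without cDNA were 549.5 CPM without and 257.7 CPM with doxycycline. VEGFD, a ligand of other VEGF receptors, had group means from 0.0786 to 0.861 CPM, the highest in sh1487 with doxycycline and no cDNA, and was not tested.

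Semaphorins and plexins share the neuropilins with VEGF. Of 13 genes listed as partners of the neuropilins, the adaptor GIPC1 among them, 11 were tested. With doxycycline in sh1487 with cDNA, 2 rose, 4 fell and 5 did not pass, where 31.3% of all genes rose and 34.1% fell. SEMA3C fell from 66.2 to 25.0 CPM (−1.37 on the log2 scale, limma adjusted p = 6.25e-11) and SEMA3G from 33.1 to 14.7 CPM (−1.12, limma adjusted p = 2.86e-09). Both also fell in shNT without cDNA, SEMA3C by 0.39 and SEMA3G by 0.32 on the log2 scale. PLXNA4, a plexin receptor, fell in both, from 8.79 to 1.21 CPM in shNT (−2.14, limma adjusted p = 9.65e-08) and from 0.850 to 0.147 CPM in sh1487 with cDNA. GIPC1, an adaptor that binds the neuropilin tail, rose from 44.7 to 79.1 CPM (0.81, limma adjusted p = 2.40e-08). The other riser was SEMA3F (0.65) and the other that fell SEMA3B (−0.67), named after their values were seen, like the further genes given below for counts of 5 or fewer. In shNT without cDNA 2 rose (PLXND1 and SEMA3D), 5 fell (also PLXNA3 and SEMA3B) and 4 did not pass, where 18.7% of all genes rose and 19.1% fell. Scaling by library size alone moved the share of calls that were higher in shNT from 49.5% to 62.8%. In shNT with cDNA PLXNA4 alone fell, where 1.81% of all genes rose and 2.14% fell.

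Downstream of the receptors, 44 of 52 listed genes of VEGF signalling were tested. With doxycycline in sh1487 with cDNA, 29 rose, 5 fell and 10 did not pass, where 31.3% of all genes rose and 34.1% fell. The median log2 change was 0.35 against −0.02 over all genes tested. HSPB1, a small heat shock protein that the VEGF pathway phosphorylates, rose from 26.6 to 56.5 CPM (1.06, limma adjusted p = 2.15e-09). PIK3R3, a regulatory subunit of PI3 kinase, rose too (log2 change 1.03, limma adjusted p = 1.93e-09). NCK2, an adaptor protein, fell from 45.2 to 22.9 CPM (−0.95, limma adjusted p = 1.14e-08), and so did SH2D2A, PLA2G4A, PIK3CA and MAPK13. In shNT without cDNA, 11 rose, 2 fell (PIK3CA among them) and 31 did not pass (median 0.05), against 18.7% of all genes that rose and 19.1% that fell. In shNT with cDNA, where the number of calls depends on the fit, 1 rose, PLCG2, and 43 did not pass, against 1.81% of all genes that rose and 2.14% that fell. The difference between the sh1487 and shNT effects with cDNA passed as higher for 22 and as lower for 5 of the 44 (NCK2, SH2D2A, PLA2G4A, SPHK1 and PLCG2), where 17.5% of all genes were higher and 20.1% lower.

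Of 10 listed genes of oxygen sensing, which act upstream of VEGFA, 8 were tested, and 5 rose and 1 fell with doxycycline in sh1487 with cDNA, the comparison in which VEGFA fell and in which 31.3% of all genes rose and 34.1% fell. EPAS1 (HIF-2α), a hypoxia-inducible factor of endothelium, rose from 1.94 to 15.4 CPM (2.49 on the log2 scale, limma adjusted p = 3.03e-12). Its means without cDNA were 2.69 CPM without and 83.7 CPM with doxycycline in sh1487, the group where FLT1 was highest. EGLN3, an oxygen sensor and itself a hypoxia target, rose from 6.61 to 22.3 CPM (1.61, limma adjusted p = 2.53e-11). HIF1A rose from 64.8 to 106.0 CPM (0.70) and its partner ARNT from 74.9 to 93.4 CPM (0.32). The others called were the prolyl hydroxylases EGLN1 (0.31) and EGLN2 (−0.20), and EGLN2 was not called with scaling by library size alone. In shNT without cDNA 2 rose, EGLN3 from 7.60 to 12.9 CPM and EPAS1 from 1.58 to 2.12 CPM, EGLN1 fell and 5 did not pass, with 18.7% of all genes higher and 19.1% lower. In shNT with cDNA EGLN3 alone rose, where 1.81% of all genes rose and 2.14% fell and the number of calls depends on the fit. The sh1487 effect with cDNA was higher than the shNT one for 5 of the 8, namely EPAS1 (difference 2.45), EGLN3 (0.92), HIF1A (0.82), EGLN1 and ARNT, with 17.5% of all genes higher, while that of VEGFA did not pass.

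Of 26 other ETS factors listed beside ERG, 16 were tested. With doxycycline in sh1487 with cDNA 6 rose, 4 fell and 6 did not pass, near the 31.3% of all genes that rose and 34.1% that fell. ETV5 fell from 51.1 to 17.6 CPM (−1.48 on the log2 scale, limma adjusted p = 2.86e-11) and GABPA by 0.57 on the log2 scale, and the others that fell were ETS2 (−0.25) and ELK4 (−0.16). ELF1 rose from 50.6 to 80.7 CPM (0.66) and EHF, an epithelial member, from 0.348 to 0.961 CPM (0.54). In shNT without cDNA 1 rose (ETS2), 8 fell (3 with scaling by library size alone) and 7 did not pass, against 18.7% of all genes that rose and 19.1% that fell, with ETV5 at 146 CPM without and 76.1 CPM with doxycycline. In shNT with cDNA, where the number of calls depends on the fit, 1 fell, ETV5, and 15 did not pass. There 1.81% of all genes rose and 2.14% fell. Among 7 other tested ligands of vessels, THBS1, a secreted inhibitor of vessel growth, rose from 2.10 to 13.7 CPM in sh1487 with cDNA (2.25, limma adjusted p = 2.08e-12), and ANGPT1, the ligand of the receptor TEK, fell from 29.3 to 22.2 CPM (−0.39). In all, 3 of the 7 rose there (also APLN and PDGFC) and 2 fell (also FGF2), beside the same shares of all genes, 31.3% and 34.1%. THBS1 fell in shNT without cDNA, from 7.17 to 3.82 CPM.

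**Figure D3:**
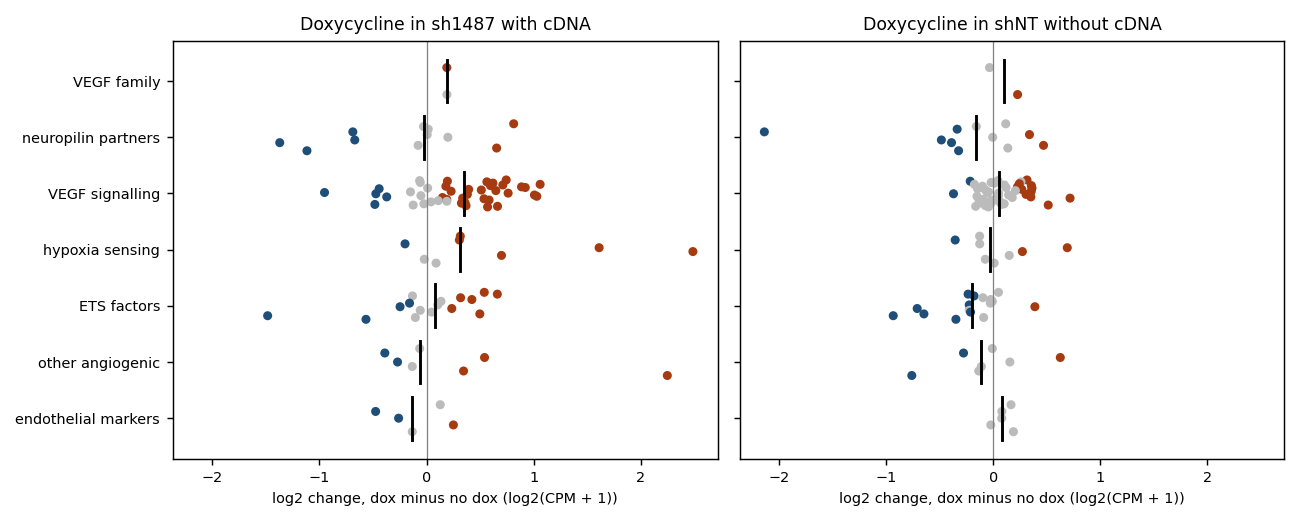
Doxycycline effect, on the log2(CPM + 1) scale, on each tested gene of 7 lists in sh1487 with cDNA (left) and shNT without cDNA (right); red points rose, blue points fell, grey points did not pass, and black bars are list medians. In the VEGF signalling list 29 of 44 genes rose on the left and 11 on the right.

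The genes whose levels were most like each member over the 24 libraries were found by Pearson's r of log2(CPM + 1), as a description. The libraries share groups, so that r follows the group means. For FLT1, among 5861 genes whose groups span at least 1 on the log2 scale, they were NEFH (0.998), HRC (0.998), LRCH2 (0.995), AQP9 (0.995) and STRA6 (0.994). NEFH, a neurofilament subunit, stood at 2.72 CPM without and 97.1 CPM with doxycycline in sh1487, and at 2.12 and 22.6 CPM with cDNA. For ERG they were MEP1B (0.992), MKI67 (0.986) and THBS4 (0.986). MKI67, the proliferation marker Ki-67, stood at 518.5 CPM without and 114.4 CPM with doxycycline in sh1487, and at 515.8 and 444.3 CPM with cDNA. MEP1B, a protease subunit of the gut brush border, stood at 132.5 and 5.74 CPM, and at 136.6 and 66.0 CPM with cDNA.

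**Figure D4:**
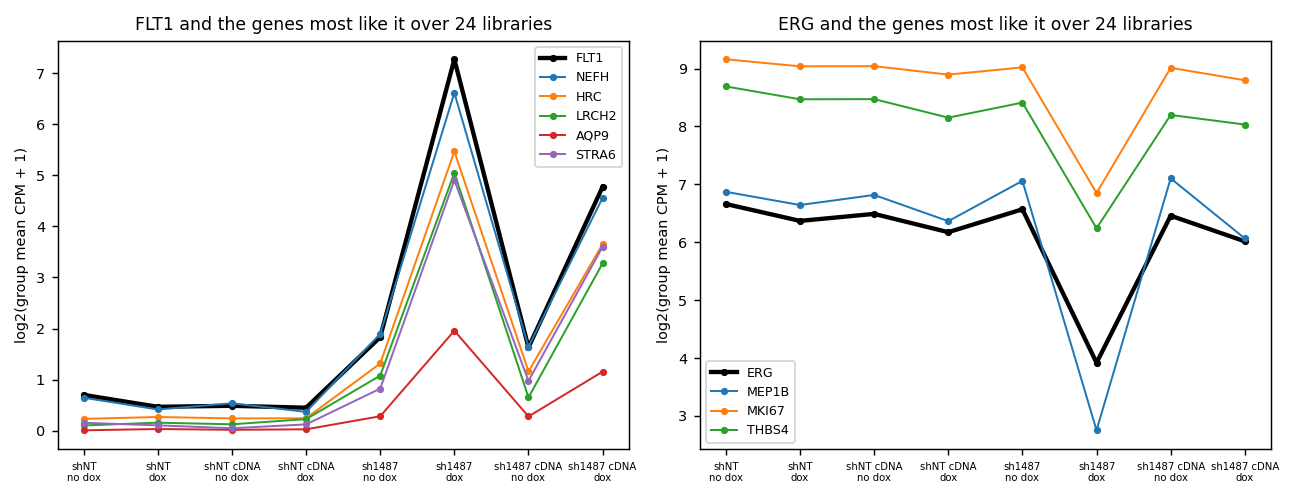
Group means of FLT1 (left) and ERG (right) with the genes most like each over 24 libraries, as log2 of mean CPM + 1 in the 8 groups; heights are not comparable between genes of different length. NEFH and FLT1 share the peak in sh1487 with doxycycline and no cDNA, where MKI67 and ERG are lowest among the 8 groups.

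For VEGFA the likeness was lower, with H1F0 (0.948), NHSL1 (0.946) and PCK2 (0.925). PCK2, a mitochondrial enzyme of gluconeogenesis, stood at 199.7 CPM without and 82.0 CPM with doxycycline in shNT, and at 81.4 and 57.4 CPM in sh1487. For VEGFB they were CCDC85B (0.980), CRELD2 (0.979) and GRAMD1A (0.977). CRELD2, a protein of the endoplasmic reticulum, stood at 24.1 CPM without and 20.2 CPM with doxycycline in sh1487.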

How the data were processed

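The 24 libraries were made from poly(A) RNA with a stranded TruSeq kit, per the labels' protocols. The tools named are STAR 2.7.7a, Trimmomatic 0.39, edgeR 4.0.2, Subread 2.4.2 and featureCounts, with the build GRCh38, per the submitters' processing notes; no annotation release or separation of mouse reads is given in the sources used here. The deposited table holds a signal per gene and library in CPM, which the authors had scaled by normalization factors (column sums 933631.7 to 1137971.1). Of 14119 gene IDs, 14106 are in GENCODE v29, from which positions were taken.

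A gene was tested where 3 or more libraries reached 1 CPM (13832 genes, with 287 left out). Values were taken as log2(CPM + 1), a pseudocount of 1, and fitted by limma 3.58.1 with trend (R 4.3.3) on the libraries of the groups compared only. The p-values were adjusted over all genes tested (Benjamini-Hochberg) and called under 0.05. There were 11 comparisons, of which 3 are described without a test for the members, as is FLT1 between the lines without doxycycline. Dividing by the CPM of 1 read gave whole reads for 100% of values within a tolerance of 0.001, so the edgeR 4.0.16 quasi-likelihood test on these reads was an alternative. It called 9078 genes for doxycycline in sh1487 with cDNA, against 9037 by limma, 5351 against 5223 in shNT without cDNA, and 499 against 547 in shNT with cDNA. The other alternatives were DESeq2 1.42.0 on whole reads, other scalings, pseudocounts of 0.1 and 5, other filters, a fit of all 24 libraries, a replicate block, and each library left out. A further one, leaving out replicate 3 in each of the shNT groups with cDNA, was chosen after seeing the data.

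To see whether replicate numbers pair libraries, the deviations of same-numbered libraries from their group means were correlated across genes. For the cDNA in shNT without doxycycline the 3 correlations were 0.105, 0.165 and 0.648. All lay above 0.1, but the fit given for that comparison has no replicate block, and the block was an alternative only. Libraries of unlike number ran from −0.66 to 0.533 there, so these values do not settle the pairing. In the other comparisons at least 1 was not above 0.1. For doxycycline in shNT with cDNA they were 0.0169, 0.821 and 0.84, against −0.858 to 0.364 for unlike numbers, so pairing was left unsettled there too.

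The members and lists were chosen with earlier results of these data known. Besides the members, the named genes are those most like each member (5 for FLT1, 3 for each other), up to 4 of each list by smallest p for doxycycline in sh1487 with cDNA, the VEGF family and endothelial lists member by member, and CTNNB1. Some genes of the VEGF signalling list are counted but not reported here by name. Promoter windows are from RefSeq on GRCh38.p14, which holds no entry used here for VEGFA.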

Additional observations from a re-analysis of the deposited data

Results flagged for a closer look

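The doxycycline effect on FLT1 differed between the sh1487 and shNT lines. With cDNA the difference of the effects was 3.20 on the log2(CPM + 1) scale (limma interaction, adjusted p = 3.91e-08), with FLT1 higher with doxycycline in 3 of 3 sh1487 libraries. FLT1 passed the filter on low values through the sh1487 lines alone. Without cDNA the difference was 5.68. There every sh1487 library was higher with doxycycline and every shNT library was lower, and this difference was not tested, since the gene was chosen with that rise known.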

How the results depend on the processing

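There were 544 alternatives to the 32 results fitted with a test for FLT1, VEGFA, VEGFB and ERG (FLT1 between the lines included). Of these, 517 kept direction and outcome, called or not, 6 lost the call, 8 gained it and 13 changed sign. The causes were not tested. The 517 include results that passed in neither fit, and all 16 alternatives to each FLT1 result between the lines, described above without a test. Sign changes were all in differences that had not passed. Library size alone gave 0.034 for VEGFB with doxycycline in shNT without cDNA, 0.030 for VEGFB in sh1487 with cDNA, 0.033 for VEGFA in the difference of effects with cDNA, and 0.013 for ERG in sh1487 minus shNT with cDNA. FLT1 with doxycycline in shNT with cDNA was 0.066 without replicate 3 of both groups. Leaving out each library gave −0.087 to 0.038 for VEGFB in shNT without cDNA, −0.15 to 0.028 for VEGFB in sh1487 with cDNA, −0.16 to 0.047 for FLT1 in shNT with cDNA, and −0.14 to 0.059 for VEGFB under the cDNA in shNT.

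Calls lost were FLT1 with doxycycline in shNT without cDNA, with DESeq2 (−0.69, adjusted p = 0.0798) and within −0.26 to −0.21 without each library, and VEGFA in shNT with cDNA, within −0.45 to −0.40. Calls gained in shNT with cDNA were ERG with DESeq2 (−0.33), all 24 libraries (−0.32) and the replicate block (−0.32), and VEGFB with the replicate block (0.26, limma adjusted p = 0.00665). For the cDNA in sh1487, the replicate block gained FLT1 (−0.20) and VEGFB (−0.16), and leaving out libraries gave −0.28 to −0.14 for FLT1, called without replicate 1 of sh1487 with cDNA and no doxycycline. Library size alone gained VEGFA in sh1487 minus shNT with cDNA (0.15). The block changed no other call of these genes.

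Among described values for doxycycline in sh1487 without cDNA, FLT1 was 5.91 with DESeq2, 5.91 with edgeR, 5.86 at a pseudocount of 0.1 and 4.39 at 5. ERG was −2.74 with DESeq2, −2.53 with library size alone and −2.37 at a pseudocount of 5, and VEGFA −0.25 with library size alone. Minus the shNT effect, FLT1 was 6.63 with DESeq2, 6.61 with edgeR, 6.45 at 0.1 and 4.45 at 5, and ERG −2.09 at 5. For the sh1487 effect with cDNA minus without, ERG was 2.31 with DESeq2 and 1.95 at 5.

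Genes called with doxycycline in shNT with cDNA (547) became 1817 with DESeq2, 4406 with all 24 libraries, 6079 with the replicate block, 1018 without replicate 3 of both groups and 15 to 487 without each library. For the cDNA in shNT (62) they became 680, 755 and 1512 in the first 3 of these settings, 115 with edgeR, 34 at a mean of at least 5 CPM and 0 to 969 without each library. The count of 0 (limma) came without replicate 1 of shNT with cDNA, or replicate 1 or 2 of shNT, with 2005, 1404 and 2176 genes at an unadjusted p under 0.05. The cDNA in sh1487 called 5093 genes, and 3273 with all 24 libraries; doxycycline in shNT without cDNA called 5223, and 3390 to 6226 without each library, the lowest without replicate 2 of shNT with doxycycline. Library size alone moved the share of calls that were higher from 49.5% to 62.8% for doxycycline in shNT without cDNA, from 46.5% to 58.3% for the difference of effects with cDNA and from 51.7% to 62.5% for the cDNA in sh1487, and the median of all genes for doxycycline in sh1487 without cDNA from 0.01 to 0.11. Of 1760 alternatives to 100 list counts, 176 moved by over 1.5 times. FLT1 in shNT rests on 8 to 49 reads per library, which limits its precision.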
